A study of Homo sapiens with 33 samples.

Results

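Chromatin profiles of the transcription factor MITF and its variants were read around 6 of the 19974 protein-coding genes of chromosomes 1 to 22 and X. The genes were GNLY, SLC52A3, EVC, BTG4, TOB1 and ZBTB49. They had been chosen by measured values of these same lists, namely the positions and −log10 q ranks of peaks called with a variant and in no list of wild-type MITF. The presence and strength of such sites is therefore a description, and no test was made of it. For each gene, every peak summit within the RefSeq span extended by 20000 bp on either side was taken, and summits no more than 150 bp apart were joined into a site. A site counted as absent from wild type when no peak of any wild-type list overlapped it, and as held by a group when every distinct list of the group had a summit in it.

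The cells were UACC-257, an established human melanoma line, with MITF knocked down and doxycycline given in all groups, including the controls. An antibody against an HA tag directed the cutting and tagging of DNA in the CUT&Tag assay. The 33 lists came from 11 groups of 3: wild-type MITF (WT), a group named Empty, and 9 variants named as in the sample titles. These were Y253A, E260A, Q261A, A264C and N278D, the further substitutions K243A and G244E, and rep217A with rep263A, whose names the labels do not explain. Separate cultures are not stated for the replicates, so the spread between lists may be technical. Replicates 2 and 3 of rep217A were identical files, as were those of rep263A, so each of these groups has 2 distinct lists and the study has 31.

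MITF is a basic helix-loop-helix leucine zipper protein that binds DNA as a dimer at E-boxes, with CACGTG and CATGTG among its preferred cores. It directs pigment, survival and lineage genes in melanocytes and melanoma. None of the 6 genes is a classical pigment gene. GNLY encodes granulysin, a cytolytic protein of the granules of killer lymphocytes. SLC52A3 encodes a riboflavin transporter. EVC encodes a protein at the base of the primary cilium that takes part in Hedgehog signalling. BTG4 and TOB1 belong to the BTG/TOB family of antiproliferative proteins, which link messenger RNAs to the deadenylase that shortens their tails. ZBTB49 encodes a zinc finger transcription factor with a BTB domain.

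The lists held 81488 to 300000 peaks and differed in depth. The summit tags and the local background behind each peak were recovered from the deposited fold enrichment and p-value, and the commonest background of a list was taken as its relative depth. It averaged 1.15 ± 0.0637 (SD, n = 3) tags in WT, 0.774 to 1.27 over Q261A, E260A, N278D, Y253A and A264C, 0.457 in rep263A, 0.312 in rep217A, 0.178 in K243A and 0.129 in G244E. In Empty it was 0.03 in all 3 lists, which is an upper limit. Levels below are summit tags divided by this commonest background, so that lists of different depth can be set side by side. Among 8 melanocyte marker genes, 7 had a peak within 5000 bp among the 10000 strongest of every WT list. None had one in every Empty list, but DCT and MC1R had one in 2 Empty lists. TYR, MLANA, SLC45A2 and TRPM1 had one in 1 Empty list each. The share of all genes with such a peak is not given here, so no enrichment is read from these counts.

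Around the 6 genes lay 17 sites that were absent from WT and held by at least 1 variant. BTG4 had 8 of them, EVC 3, GNLY and SLC52A3 2 each, and TOB1 and ZBTB49 1 each. In the rep217A lists 2 of the BTG4 sites were summits of 1 called peak. All 6 genes had such a site because they were chosen for it, and over all protein-coding genes the share with one was 57.3%. By variant, Y253A held one near 6 of the 6 genes (25.7% of all genes), E260A near 5 (26.7%), N278D near 5 (25%), rep217A near 5 (27.9%), rep263A near 4 (13.9%), Q261A near 4 (10.8%) and A264C near 4 (8.47%). G244E held 1, in the BTG4 window (2.09%), and K243A held none (0.926%). Empty held none of the 17, but it held few sites anywhere. Over all chromosomes read it held 8115 sites, 131 of them absent from WT, against 71997 and 8460 in rep217A. Holding asked for 2 lists in rep217A and rep263A and 3 elsewhere, an easier rule for these 2 variants. Since the choice of genes used these contrasts, nothing is read from the counts.

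**Figure D1:**
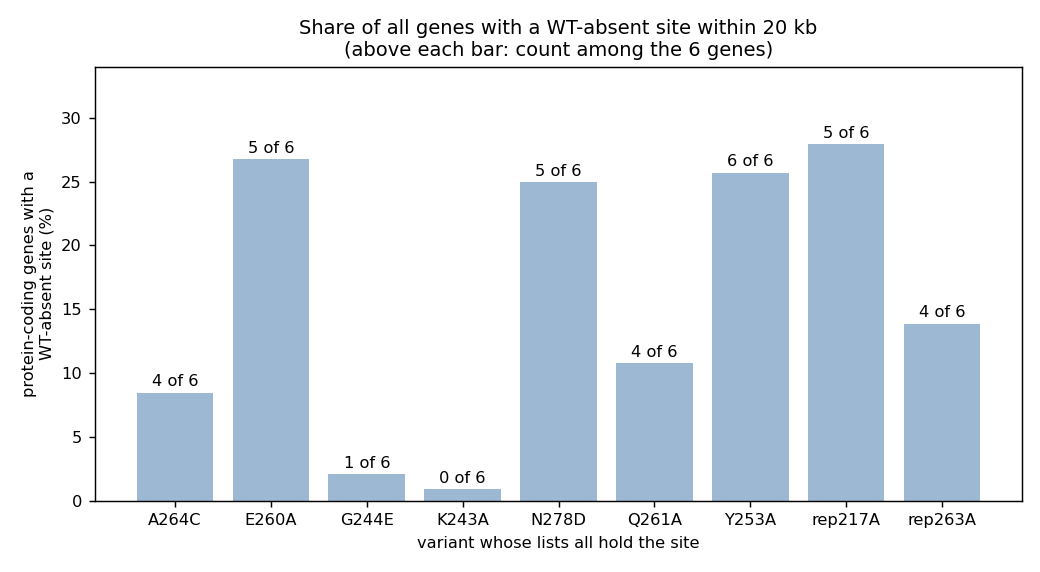
Percent of all 19974 protein-coding genes with a WT-absent site within 20 kb held by each of the 9 variants (bars), with the count among the 6 genes written above each bar. The bars run from 0.926% in K243A to 27.9% in rep217A, and the counts among the 6 genes run from 0 in K243A to 6 in Y253A. Holding asked for a summit in 2 lists in rep217A and rep263A and in 3 in the others, so the bars are not like for like.

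The WT-absent sites differed in strength. A site called strong here was among the 10000 peaks of highest −log10 q in every list of the variant. That limit fell at a −log10 q of 19.5 to 22.3 in rep217A, 77.1 to 85.8 in E260A and 92.2 to 100.3 in WT. It asked for 2 lists in rep217A and rep263A and 3 elsewhere. Strong is therefore a place within a list, not a common strength. At the GNLY site strong in rep217A (mean −log10 q of 76.8), N278D was not strong at 111. Strong WT-absent sites lay near 7 protein-coding genes in all (0.035%). They were 6 genes for rep217A (0.03%), among them GNLY, BTG4 and SLC52A3, and 1 gene for E260A (0.00501%), which was EVC. The other 3 genes, all with rep217A, were SULT1C2, SLC45A4 and NAA16. The share was 0% for each of A264C, G244E, K243A, N278D, Q261A, Y253A and rep263A. Counted as sites, 12 of the 7343 strong sites of rep217A and 1 of the 7371 of E260A were absent from WT. TOB1 and ZBTB49 had no strong one. Just inside the limit of 10000 lay NAA16 with a mean rank of 8948, and just outside it lay the GNLY site in N278D at 10326 and the ZBTB49 site in E260A at 12736. Lists differ in length and depth, so a rank by itself shows no change between groups. When the peaks were ordered by their fold, EVC in E260A fell outside the limit at a mean rank of 51391 and BTG4 in rep217A at 25603, GNLY in rep217A stood at 2334, and ZBTB49 in E260A came inside it at 4078.

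For each gene the WT-absent site of best mean rank in any variant that holds it was taken as the lead site and is described in every list.

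**Figure D2:**
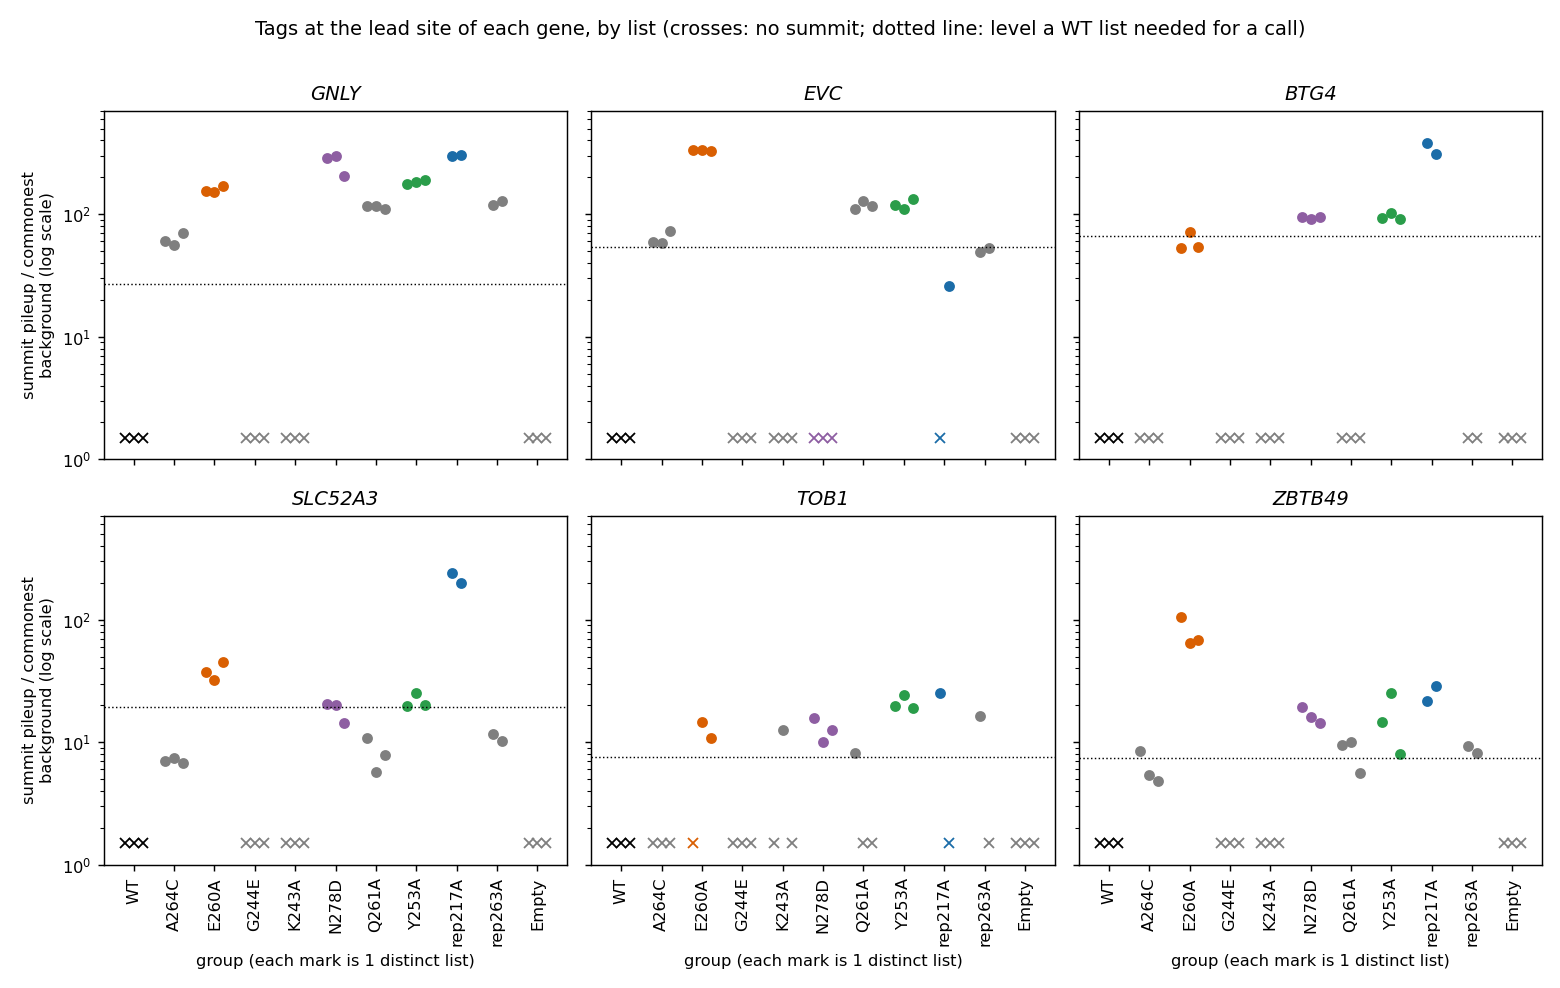
Summit tags over the commonest background (log axis) at the lead site of each gene, 1 mark per distinct list, with crosses for lists without a summit. The dotted line is the highest level a WT list would have needed for a call, from 7.39 at ZBTB49 to 66.5 at BTG4. It assumes the local background of the leading variant, scaled to the depth of WT, and the local background of WT itself may differ. The GNLY marks all lie above it, while the E260A marks at BTG4 straddle it.

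The lead site of GNLY was at chr2:85713424-85713477 (hg38), 14572 bp outside the gene and in no annotated gene. It had a summit in 19 lists, which were all lists of every variant except G244E and K243A. In rep217A the level was 301 and 302 (301 ± 0.707, SD, n = 2), and the site ranked 1391 and 1160 of its lists. The N278D lists gave 290.2, 297 and 206. The Y253A lists gave 178, 182 and 189.7. These 3 variants were followed by E260A at 154, 152 and 171, by rep263A at 119 and 127, by Q261A at 116, 118 and 111, and by A264C at 60.4, 56.5 and 70.4. In level the highest N278D list came close to the rep217A lists, and Q261A ended where rep263A began. By fold N278D and rep217A lay apart, with means of 6.07 and 14.9. Their local backgrounds were 42.5 and 17.2 times the commonest. A264C lay below every other variant that held the site. None of the WT, G244E, K243A or Empty lists had a summit there, and the nearest WT peak was 1379 bp away.

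The strongest WT site in the GNLY window lay 4170 bp from the lead site, at chr2:85717472-85717769. There WT reached 338 ± 22.5 (SD, n = 3) with a mean rank of 1014. N278D reached 504 ± 15.7 (n = 3), rep263A 489 ± 2.57 (n = 2), Y253A 461 ± 8.99 (n = 3) and Q261A 428 ± 60.9 (n = 3). In rep217A the same site was at 43.5 and 71.8, from 12 and 25 tags, below all 3 WT lists, whose lowest was 323. In rep217A the WT-absent site was thus high and the WT site low, whereas N278D and Y253A were high at both. Of the 8 sites that WT held within 20000 bp of the lead site, rep217A held 3. Those it did not hold had mean WT levels of 14.6 to 22.7, and rep217A was shallower than WT. The share of all WT-held sites that rep217A held is not given here, so no loss is read from this count.

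SLC52A3 had its lead site at chr20:755770-756014, 4066 bp outside the gene and in no annotated gene. It was held by the same 7 variants as the GNLY site. In rep217A the level was 239 and 198 (219 ± 28.9, SD, n = 2), with ranks of 1943 and 2510. E260A followed at 37.2, 32.3 and 45.5, and no list of any other variant came above 25.2. Y253A stood at 19.8, 25.2 and 20.2 and N278D at 20.4, 20.2 and 14.3, ranges that overlap. The lowest levels were those of rep263A at 11.7 and 10.3, Q261A at 10.8, 5.74 and 7.91, and A264C at 6.97, 7.39 and 6.75. These rest on few tags, 4 to 11 per list. The window held no strong WT site: the best one, at chr20:761058-761487 inside the gene, was at 9.54 ± 1.69 (SD, n = 3) in WT with a mean rank of 105880, and rep217A did not hold it. The nearest WT peak to the lead site was 1552 bp away.

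EVC had its highest levels in E260A. Its lead site, at chr4:5751250-5751283, lies inside the gene and 40049 bp from its nearer end. All 3 E260A lists were alike, at 332, 333 and 327 (331 ± 3.29, SD, n = 3), from 273 to 320 tags, and the site ranked 2615, 2499 and 2759. Q261A gave 111, 129 and 118. Y253A gave 119.8, 111 and 132, so that these variants overlapped, with every list below the E260A lists. A264C gave 59.6, 58.5 and 73.3, and rep263A gave 49.2 and 53.4. One of the 2 rep217A lists had a summit, at 25.9 from 9 tags, and no N278D list had one. The nearest WT peak was 1596 bp away.

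The EVC site had close WT neighbours, at 2025 and 2723 bp from it. At the nearer one WT stood at 103 ± 10.5 (SD, n = 3) and E260A at 301 ± 31.4 (n = 3). At the farther one, the strongest WT site of the window, WT lists ran from 137 to 146 and E260A lists from 188 to 224. The lists of A264C, K243A, N278D, Q261A and Y253A also lay above WT there, and N278D, with no summit at the lead site, was at 259 ± 37.6 (n = 3). By rank and fold the order of E260A and WT was the other way, with a mean rank of 14246 and a fold of 5.01 in E260A against 9580 and 9.62 in WT. The local background was 40.0 times the commonest in E260A and 13.9 times in WT. All 3 WT-held sites within 20000 bp were also held by E260A. The share of all WT-held sites that E260A held is not given here, so nothing is read from this count. The other WT-absent sites of EVC were weak. One, held by Y253A only, lay at the edge of the EVC2 span nearer to EVC, with a mean rank of 116665 and a WT peak 184 bp away. It also had a summit in 2 lists each of E260A and N278D and in 1 list each of Q261A and A264C. EVC2 is the partner of EVC in the same ciliary complex.

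BTG4 had most WT-absent sites and the longest span, 130900 bp. Its lead site, chr11:111452253-111452287, lies inside BTG4 and inside LOC644277, which overlaps it. In rep217A it reached 384 and 310.3 (347 ± 52.1, SD, n = 2), with ranks of 2373 and 3554. The other variants that held it were far lower, Y253A at 93.1, 102 and 90.8, N278D at 95.2, 91.8 and 95.7, and E260A at 52.9, 71.8 and 53.9. Y253A and N278D overlapped. A second WT-absent site, held by rep217A only, lay 297 bp before it, with a mean rank of 19587. In both rep217A lists the 2 sites were summits of 1 called peak, and with a gap of 300 bp they joined into 1 site. Both sites stand beside a very strong WT site, chr11:111450489-111450555, which had a mean rank of 111 in WT and lay 1748 bp from the lead site. WT was at 655 ± 53.1 there (n = 3) and rep217A at 361 ± 22.6 (n = 2). This WT site was also called in 2 of the 3 Empty lists. It ranked 238.5 from 10 tags in replicate 2 of Empty and 65121 from 2 tags in replicate 3. A further WT-held site lay 2049 bp from the lead site, with WT at 584 ± 50.1 and rep217A at 505 ± 17.3, above the rep217A lead site. The local background at the lead site was 48.6 to 51.1 times the commonest in rep217A, a value that counts the tags of the surrounding region. The other 6 BTG4 sites had mean ranks between 51551 and 148959, and the one held by G244E, in POU2AF1, lay 89 bp from a WT peak.

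TOB1, the other BTG/TOB gene, had the lead site of poorest mean rank among the 6. It lay at chr17:50850961-50851026, 11197 bp outside the gene and in no annotated gene, and was held by Y253A and N278D. Y253A gave 19.8, 24.2 and 19.2 (21.1 ± 2.73, SD, n = 3) from 19 to 25 tags, with a mean rank of 80974. N278D gave 15.9, 10.1 and 12.5, below all Y253A lists. Single lists of Q261A, K243A, rep217A and rep263A and 2 lists of E260A also had a summit, from 2 tags in K243A to 14 in E260A. The rep217A list stood at 25.4 from 7 tags, above every Y253A list, with a rank of 41365, but the other rep217A list had no summit. A stronger WT-absent site lay just beyond the window, at chr17:50891693-50891901 inside LOC105371825. It was 23715 bp from the edge of the TOB1 span with the higher coordinate. E260A stood at 175, 173 and 189 there, Y253A at 106, 119 and 138, and Q261A at 108, 89.0 and 124. The E260A lists lay above those of every other group that held it, with a mean rank of 13749 ± 464 (SD, n = 3). Whether TOB1 counts as having a notable WT-absent site therefore depends on the width of the window.

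ZBTB49 had its lead site inside the gene at chr4:4302598-4302812, held by the same 7 variants as those of GNLY and SLC52A3. E260A gave 105, 64.5 and 68.3 (79.2 ± 22.2, SD, n = 3), with ranks of 6485, 16144 and 15578. The spread between these lists was wide, and only replicate 1 was within the first 10000. The rep217A lists gave 21.7 and 28.7, N278D 19.3, 16.1 and 14.3, and Y253A 14.7, 25.2 and 8.07, ranges that overlap in part. The rep263A lists gave 9.37 and 8.21, Q261A 9.46, 10.04 and 5.65, and A264C 8.52, 5.38 and 4.82. Every E260A list lay above every list of another variant. The nearest WT peak was 3280 bp away.

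**Figure D3:**
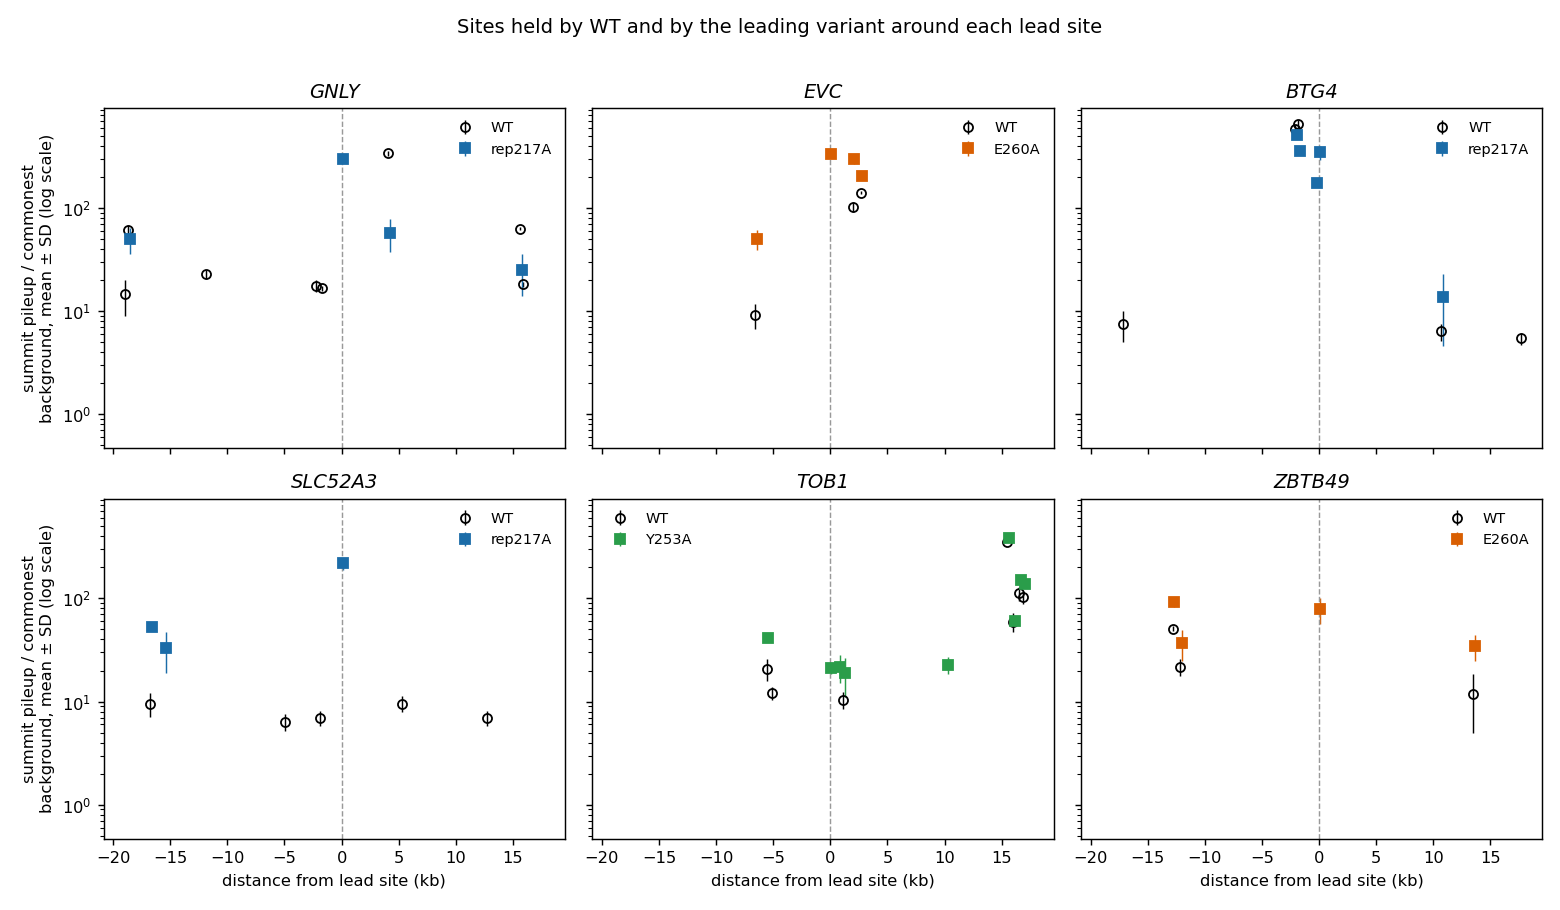
Mean level (summit tags over commonest background, log axis, bars for SD) of the sites held by all WT lists (open circles) and by all lists of the leading variant (squares) within 20 kb of each lead site, against the distance from it. At GNLY the rep217A square at the lead site stands at 301 and the WT circle 4170 bp away at 338, while rep217A is at 57.7 there. At EVC the E260A squares stand above the WT circles in level at the 2 nearest sites, while at the farther of these E260A has the poorer mean rank, 14246 against 9580.

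None of the WT, G244E or Empty lists had a summit at any of the 6 lead sites, and K243A had one in a single list, at TOB1. Across the 6 genes the leading variant was rep217A for GNLY, SLC52A3 and BTG4, E260A for EVC and ZBTB49, and Y253A for TOB1. The order of the other variants was not fixed: N278D was near the top at GNLY and had no summit at EVC, and E260A was first at EVC and lowest of the holders at BTG4. A264C was lowest, or overlapped the lowest, at each of the lead sites of GNLY, SLC52A3 and ZBTB49.

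**Figure D4:**
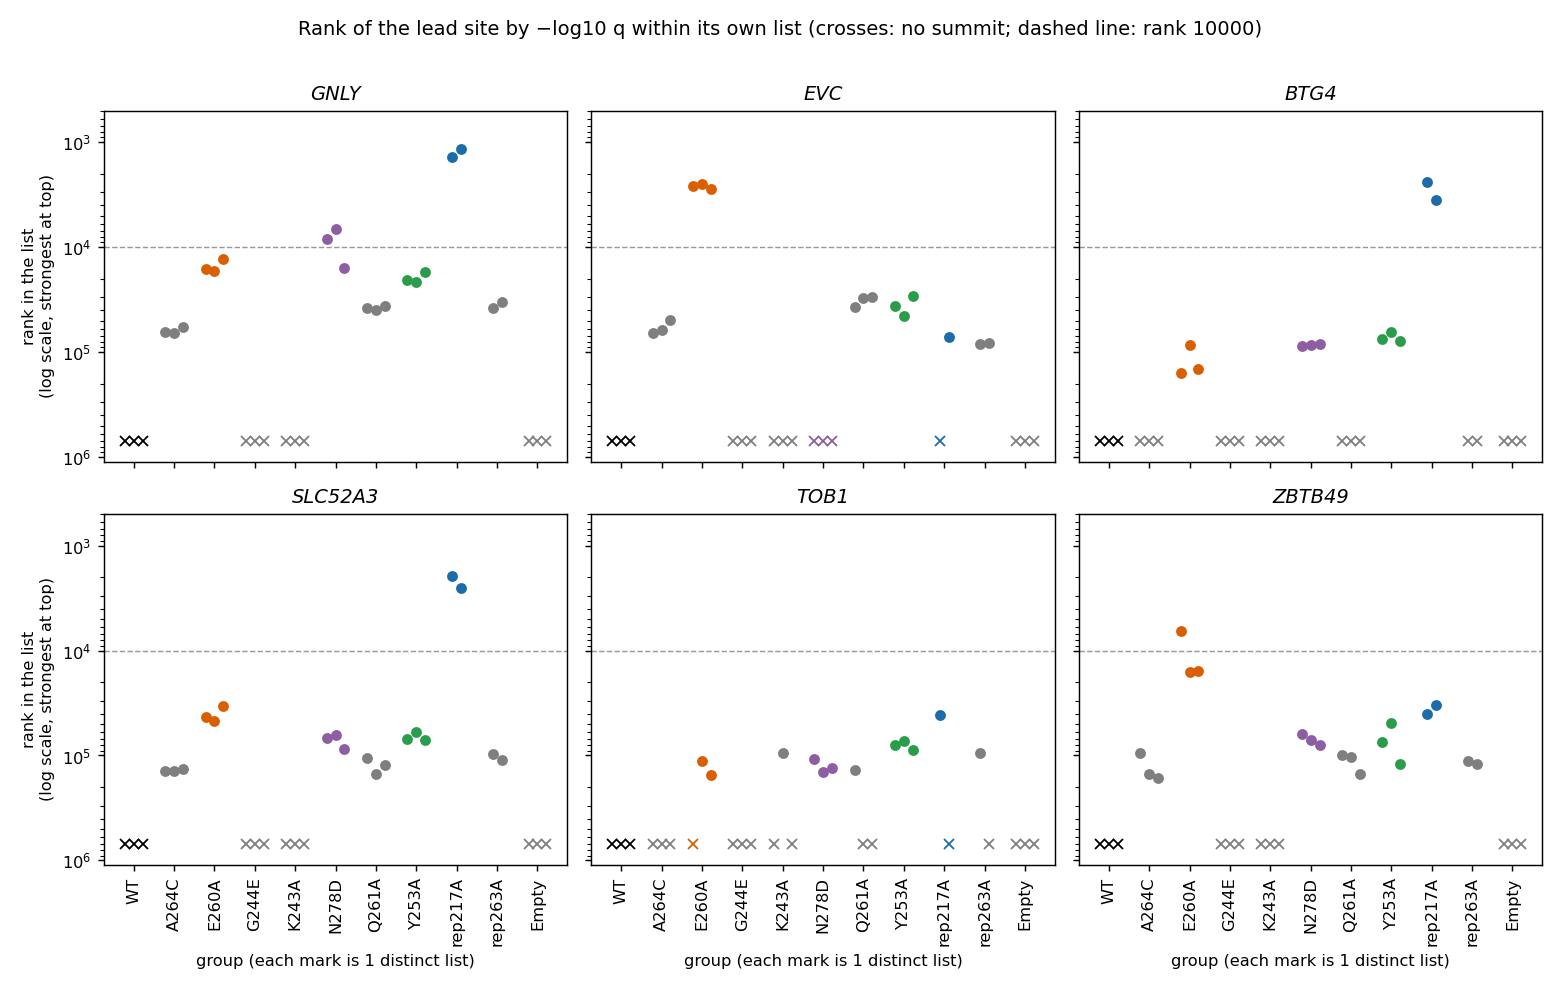
Rank of the lead site by −log10 q within its own list (log axis, strongest at the top), 1 mark per distinct list, with crosses for lists without a summit and a dashed line at rank 10000. For rep217A at GNLY, BTG4 and SLC52A3 and for E260A at EVC, all lists lie above the line. At TOB1 no list does.

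Depth decides what a missing summit can show. If the commonest background held at the site, 4 tags would have been called in any WT list. Where the local background of the leading variant is scaled to the depth of WT, 29 to 32 tags would have been needed at GNLY, 59 to 65 at EVC, 72 to 79 at BTG4, 21 to 23 at SLC52A3, 8 to 9 at TOB1 and 8 at ZBTB49. The level of the leading variant, scaled in the same way, would have given 326 to 362 tags at GNLY, 358 to 397 at EVC, 376 to 417 at BTG4, 237 to 263 at SLC52A3, 22.8 to 25.3 at TOB1 and 85.7 to 95.1 at ZBTB49. It would have been called in 18 of 18 pairs of a gene and a WT list. The leading variants were themselves called at a lower mean depth than WT, so this count follows from the scaling and tests nothing. Under this scaling a WT list could have called the level of the leading variant, but not every weaker one. With the scaled local background, a WT level below 65.2 at BTG4 would have gone uncalled. That limit is above 2 of the 3 E260A lists. The local background of WT itself at the lead sites is not known. At the strongest WT sites of the EVC and BTG4 windows it was 13.9 and 42.1 times the commonest. The scaling used 39.9 and 49.9 times, so fewer tags may have sufficed in WT.

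At the depth of the shallow variants the same scaling gave calls as well. G244E would have reached a call in 18 of 18 pairs and K243A in 17 of 17, for example with 32.5 to 45.5 scaled tags against 6 to 7 needed for GNLY in G244E. In Empty 15 of 18 pairs would have reached it, TOB1 being the exception with 0.632 tags. At TOB1 the margin was also narrow in G244E, where 2.28 to 3.18 scaled tags stand against 2 to 3 needed, and in K243A, with 2.78 to 5.14 against 2 to 3, so a missing TOB1 summit is at the edge of detection in both. Because the depth of Empty is an upper limit, these scaled tags are upper limits too, and a site missing in Empty may have been undetectable.

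The promoters of the genes were looked at for what WT and the variants shared there. Sequence for them came from the RefSeq promoter table (GRCh38.p14), which matched 5 of the 6 genes, all but SLC52A3. The EVC promoter is shown because summits lay in it in 27 of the 28 lists other than Empty, at positions 5711113 to 5711179, and it has the following 250 bases upstream of the start, chr4:5710951-5711200, plus strand. The ZBTB49 stretch is shown because it holds the only match to either E-box core in these promoters, at chr4:4290068-4290097, plus strand, with the core in capitals.
EVC: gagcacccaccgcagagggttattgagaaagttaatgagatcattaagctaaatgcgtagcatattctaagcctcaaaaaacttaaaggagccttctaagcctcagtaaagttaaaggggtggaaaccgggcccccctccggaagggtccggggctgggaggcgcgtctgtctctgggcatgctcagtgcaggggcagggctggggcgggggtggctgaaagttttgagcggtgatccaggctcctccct
ZBTB49: ggccgcggggagCACGTGgactcgccgccg
Both strands were searched for CACGTG and for CATGTG, which reads CACATG on the other strand. In the 250 bases before the start, CACGTG occurred in 6.34% of the 35116 RefSeq promoters and CATGTG in 9.42%. Neither is in the EVC stretch. A match is only a match of letters, and none says only that these letters are not in the stretch. The sequences of the lead sites themselves were not analysed here.

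At the ZBTB49 promoter, which is shared with the neighbouring gene LYAR, 27 of the 28 lists had a summit 54 to 118 bp past the end of CACGTG. The site ranked 22180 ± 969 (SD, n = 3) in WT and 12697 ± 2404 in E260A. In level it stood at 51.0 ± 2.77 in WT, 92.3 ± 10.2 in E260A, 89.8 ± 7.08 in N278D, 89.0 ± 2.98 in Q261A (n = 3 each) and 68.0 ± 3.22 in rep263A (n = 2), and no list of these 4 variants overlapped WT. At the EVC promoter the mean rank was 31992 ± 3950 in WT, 24175 ± 5778 in E260A, 24948 ± 5440 in N278D, 26959 ± 1121 in A264C and 19220 ± 10490 in K243A (n = 3 each). The K243A mean rank was the best of these at a −log10 q of 4.39 to 18.2, against 35.9 to 57.3 in E260A. Depth differs between these lists, so the ranks do not show whether E260A stood apart there. TOB1 had a strong promoter site, chr17:50866485-50866641, at 355 ± 6.12 in WT and a mean rank of 1072. It was the strongest WT site of the window and was also called in all 3 Empty lists, from 6 to 8 tags, with a mean rank of 1982. The promoter window of GNLY had no summit in any list, and that of BTG4 had 1 in WT and 1 in Y253A.

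Other genes of the same pathways were read against the 57.3% of all genes with a WT-absent site held by a variant. In the EvC and Hedgehog list 8 of 11 others had one, including EVC2, PTCH1, the Hedgehog receptor, and GLI1, a transcription factor of the pathway. The BTG/TOB family had 2 of 4 (BTG2 and TOB2), the riboflavin list 2 of 5 (SLC52A1 and RFK), the cytolytic granule list 3 of 9 (GZMH, GZMM and SRGN) and the list of BTB zinc finger and arrest genes 5 of 7. No gene of these lists had a strong one. These lists are small, and nothing particular to one is read from its count. Lymphoid markers, to which GNLY is nearest in kind, had a strong peak in every WT list at 1 of 8 genes. The share of all genes with such a peak is not given here, so nothing is read from that count.

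Sites of other genes with the same holding groups and the nearest mean ranks were also found, likeness being the mean absolute difference in log10 rank over those groups. The SLC52A3 site was most like that of SULT1C2 (0.142), out of 31 other sites held by the same 7 variants. The ZBTB49 site was nearest to the site of CLDN25, USP28 and ZW10 (0.179), and the GNLY site to that of ADSS1 and SIVA1 (0.315), out of the same 31. The BTG4 site was nearest to that of CTBP2 (0.277, of 105) and the EVC site to that of OR1J2, OR1J4 and OR1N1 (0.396, of 21). The TOB1 site was nearest to that of MET (0.00858), out of 1008 with the same pattern.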

How the data were processed

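The 33 lists were deposited by the authors as MACS2 narrowPeak files, 1 per library, on hg38, with bcl2fastq 2.20.0.422 and Bowtie2 2.3.4.3 also named in the submitters' processing notes. As the authors deposited them, each peak carries a fold enrichment (a ratio of summit to local background), −log10 p, −log10 q, the summit offset and a score, of which the score was not used. Whether a control library was used in calling is not stated by the labels. The weakest peaks of a list had a −log10 p of 2.00 to 2.18.

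The 6 genes, the gene lists and the site rule were chosen with earlier results of these data known. Identical lists were counted once. Gene spans came from RefSeq on GRCh38, in a table without exons or strand, so exon and intron were not analysed here. The named rule took, for each gene, the lead site, any further WT-absent site with a mean rank within the first 10000 (none was found), the site of best mean rank in WT, and the 3 most alike genes, of which the nearest is printed. Summit tags came from MACS2's fold, (tags + 1)/(background + 1), and its Poisson p-value. A whole number met the deposited values within 0.001 for 100% of the 3000 peaks tried per list, which were drawn from its weaker peaks. With p shuffled among these peaks of a list, 2.37% to 47.0% met them, the highest shares being in K243A, G244E and Empty lists, where the check says less. Strong peaks such as the EVC lead peaks in E260A, with a −log10 p of 150 to 174, were outside this check. For those 3 peaks a whole number met the deposited values within 7.23e-05. The site rule and the recovery were tested on simulated data. Python 3.11.15, numpy 2.4.6, pandas 2.3.3, scipy 1.17.1 and matplotlib 3.10.9 were used. Other settings tried were the gap, the window, the definition of absence, a −log10 q of at least 5, ranking by fold or p, the strong limit and leaving out each replicate.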

Additional observations from a re-analysis of the deposited data

How the results depend on the processing

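All 6 genes kept a WT-absent site held by a variant under every setting tried except a window of 5000 bp, where GNLY and TOB1 had none. The number of such sites (17) was 12 to 25 under the other gaps, windows and definitions of absence. It was 9 when a −log10 q of at least 5 was asked of all lists but WT, and 34 to 80 when 1 replicate of every group was left out, since fewer lists must then hold a site and fewer WT lists can exclude it. The shared list of rep217A and of rep263A was treated as replicate 2. Genes with a strong WT-absent site numbered 7 with the 10000 strongest peaks, 4 with the 5000 strongest and 51 with the 20000 strongest. The lead site of TOB1 was another one with a window of 50000 bp and with a −log10 q of at least 5 in all lists, and without replicate 2 its leading group was rep217A, from 1 list. Of the 6 ranks of lead sites recomputed by fold, 4 moved by more than the spread between lists, as given above for EVC, BTG4, GNLY and ZBTB49. Ranks by −log10 p follow almost the same order as by −log10 q, and means without 1 replicate cannot leave that spread, so neither shows stability. No paired analysis was possible because the results come from counts and ranks of peaks and from no test. Shallow lists limit what absence shows in Empty.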
